A study of Mus musculus with 4 samples.

Results

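SOX2 chromatin immunoprecipitation peaks were examined around 5 genes of brain lipoprotein assembly and cholesterol export: Apoe, Clu, Abca1, Abcg1 and Lrp1. SOX2 is a transcription factor of neural stem cells that is also made by astrocytes. A peak was counted for a gene when its centre lay inside the gene span or within 50 kb of it, so a peak could also belong to a nearer neighbour, which is then named. The 5 genes are 5 of 21631 protein-coding genes of the RefSeq table on chromosomes 1 to 19 and X, and their windows held 17, 20 and 14 peaks of IP libraries 1, 2 and 3, out of 17730, 17628 and 15891 peaks. There were 3 libraries immunoprecipitated (IP) with a rabbit anti-SOX2 antibody and 1 input library of unselected chromatin, all from the cortex of male wild-type C57BL/6 mice aged 2 months, with no injured or SOX2-deficient group. For each of the 4 samples a separate label field gives SOX2 as the factor transduced, although the protocol describes wild-type tissue, and that field was not used. The tissue was unsorted cortex, so a site bound in few cells and a site weakly bound in many cells cannot be told apart, and peak lists hold no expression values against which the cell types could be checked. Whether different animals gave the 3 IP libraries is not stated, so p-values measure only the spread between these libraries, which may be technical.

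Lipids move between brain cells on lipoprotein particles that are made in the brain itself, mainly by astrocytes. Apoe encodes apolipoprotein E and Clu encodes clusterin, also called apolipoprotein J, the main protein components of these particles. Abca1 and Abcg1 encode membrane transporters that load cholesterol onto them, and Lrp1 encodes a large endocytic receptor that takes them up. The nuclear receptors LXR alpha and LXR beta, activated by oxysterols, are known inducers of Abca1, Abcg1 and Apoe. In humans, APOE, TOMM40 and the APOC genes form a cluster in which distal enhancers are known to direct APOE expression in astrocytes.

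A SOX2 region found in all 3 IP libraries lay on the promoter of Apoe, while a peak of IP library 2 alone lay on the promoter of Abca1. Both are shown because, of the members with a promoter in the RefSeq table, they are those whose promoter a peak touched. Clu and Abcg1 had no promoter listed there, so theirs could not be checked and peaks on them are not excluded. Each runs from 250 bases before to 50 after the start of transcription, which is position 251 of 300, 5′ to 3′ along the gene, from RefSeq on the GRCm38.p6 build, whose coordinates are those of mm10. Both genes lie on the minus strand, Apoe at chr7:19699139-19699438 and Abca1 at chr4:53159846-53160145. Capitals mark the bases inside the peaks of all 3 libraries for Apoe, and those inside the peak of IP library 2 for Abca1.
Apoe promoter: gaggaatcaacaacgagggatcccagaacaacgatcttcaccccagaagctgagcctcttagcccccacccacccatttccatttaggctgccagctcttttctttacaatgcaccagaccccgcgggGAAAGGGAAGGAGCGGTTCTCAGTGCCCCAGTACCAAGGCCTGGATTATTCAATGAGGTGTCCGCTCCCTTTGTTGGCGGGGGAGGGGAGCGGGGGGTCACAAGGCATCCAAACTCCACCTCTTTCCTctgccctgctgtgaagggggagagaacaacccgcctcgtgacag
Abca1 promoter: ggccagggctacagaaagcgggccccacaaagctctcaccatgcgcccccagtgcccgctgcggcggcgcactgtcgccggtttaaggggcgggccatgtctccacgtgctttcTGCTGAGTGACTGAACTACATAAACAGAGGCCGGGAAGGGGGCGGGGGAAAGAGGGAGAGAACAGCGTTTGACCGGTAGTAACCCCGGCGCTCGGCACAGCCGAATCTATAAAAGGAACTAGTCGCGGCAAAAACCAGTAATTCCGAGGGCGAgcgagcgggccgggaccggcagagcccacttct

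The Apoe stretch common to the 3 peaks spanned positions 129 to 256, a length of 128 bases, and thus reached across the start. HMG-box proteins such as SOX2 recognise short sites, searched here on both strands as ACAAAG and ACAATG, which do not overlap each other. The Apoe promoter held ACAAAG once, on the opposite strand at positions 197 to 202 and inside the common stretch, and ACAATG once, at positions 107 to 112 and outside it. Of 32851 RefSeq promoters of the same length, 18.7% held ACAAAG, 12.6% held ACAATG, 28.6% held at least 1 of them and 5.59% held 2 or more matches. In the Abca1 promoter ACAAAG was found once, at positions 27 to 32 and outside the peak. The GC box, searched as GGGCGG and present in 35.7% of promoters, stood at positions 88 to 93, outside the peak, and 154 to 159, inside it. The core promoter motif TATAAA, present in 13.6% of promoters, stood inside the peak at positions 222 to 227. The E box CACGTG, present in 7.15% of promoters, stood outside the peak at positions 104 to 109. The POU octamer ATGCNAAT, found in 3.15% of promoters, and the NFI site TTGGCA, found in 14.1%, were in neither window. Neither was a perfect LXR direct repeat with a spacer of 4 bases, found in 0.0152% of promoters. Only this exact repeat was searched, and 5 of 32851 promoters held it, so its absence was likely for any promoter. Imperfect LXR repeats were not searched, so whether either window holds one is not known from this. The Apoe promoter held no match to the GC box, TATAAA or the E box. These letters were searched after the peaks were known, and a match is a description of the window.

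Over the series, the IP libraries held 36330529, 32492927 and 41875666 tags, which are sequenced reads placed on the genome. Normalized tags, the authors' value per peak scaled to 10000000 tags per library, are the measure of strength below. The caller's threshold of 14, 13 and 16 tags in IP libraries 1, 2 and 3 corresponded to 3.85, 4.00 and 3.82 normalized tags, and the lowest values listed were 3.30, 3.08 and 2.87. Merging of peaks with an overlap of 1 bp or more gave 27083 regions, of which 9334 (34.5%) held peaks of all 3 libraries. These 9334 are called reproducible, and their mean over the 3 libraries had a median of 7.63 normalized tags and of 15.3-fold over the input.

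The 5 windows held 26 merged regions, 11 of them in all 3 libraries, 3 in 2 libraries and 12 in 1 library. The share in all 3 was 42.3%, against 34.5% over all regions. By gene, 5 reproducible regions lay in the window of Apoe, 3 in that of Clu, 1 in that of Abca1, 2 in that of Lrp1 and 0 in that of Abcg1. Thus 4 of the 5 genes had at least 1 reproducible region within 50 kb, against 46.6% of all protein-coding genes. Inside the gene span itself, 3 of the 5 had one, against 14.8% of all protein-coding genes, and the same 3 were also the nearest gene to one, against 22.9%. The 5 genes were not matched to the others for length, and Abca1 and Lrp1 span 129 and 83.0 kb. At least as many reproducible regions as in the windows of Abca1 and Lrp1 were found for 46.6% and 21.4% of all protein-coding genes. In 7 of the 11 reproducible regions another protein-coding gene was nearer than the member, 4 of them in the window of Apoe and all 3 in that of Clu. No chance test was made of these counts, because the genes were chosen with earlier results of these data known, and distance alone does not assign a region to the gene it regulates.

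**Figure D1:**
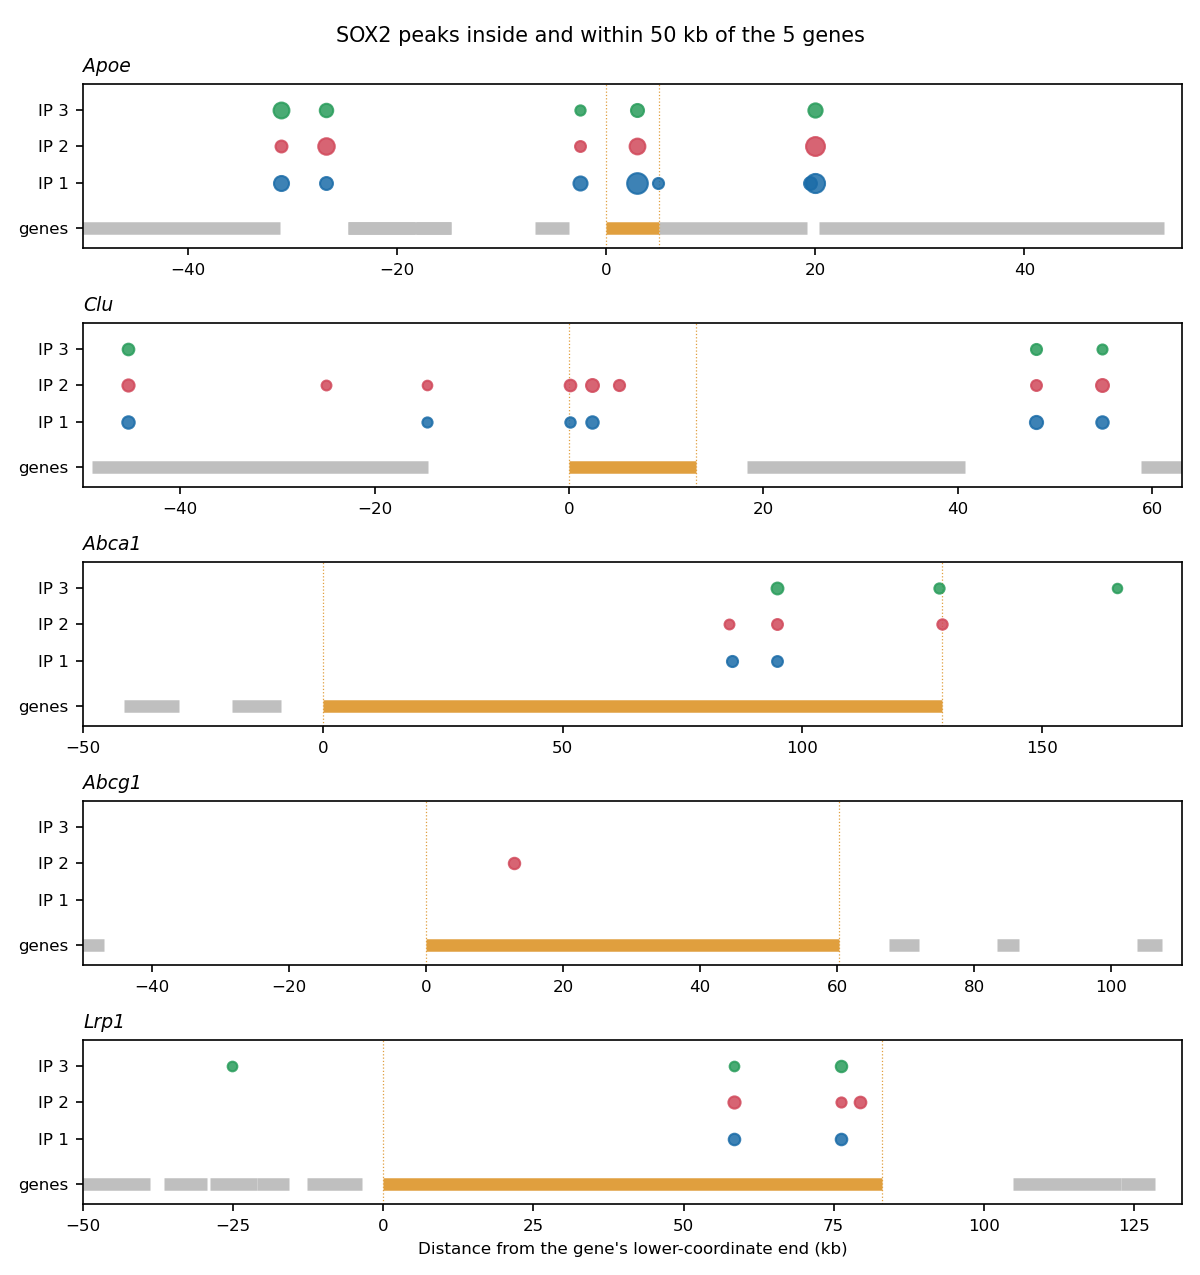
SOX2 peaks by distance in kb from the lower-coordinate end of each gene, 1 panel per gene, with a row of points for each IP library (larger points hold more normalized tags), the gene in orange and other protein-coding genes in grey. The 5 reproducible regions of the Apoe window, 3 of Clu, 1 of Abca1 and 2 of Lrp1 appear as points in all 3 rows, and Abcg1 has 1 point in IP library 2.

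Among the 5 genes, Apoe had the densest window of listed peaks, with 5 reproducible regions, or 4.76 per 100 kb. As many as 5 or more were found for 1.83% of all protein-coding genes, and the density was higher than that of 99.7% of them. On the Nectin2 side, however, no library listed a peak in the outer 35.1 kb of the window, and the next peak lay 4380 kb from Apoe. Among all stretches between neighbouring peaks in the series, 0.0195% were longer, and whether the lists used here are complete in this stretch could not be told. The Apoe count, its density, its percentile and its count in wider windows therefore describe the listed peaks only and could be too low on that side. The window also overlapped 7 other protein-coding genes, so that the same regions counted for those neighbours. The promoter region, on chromosome 7 from 19699152 to 19699335, had its peak centres 71, 49 and 43 bp upstream of the start in IP libraries 1, 2 and 3. It held 17.3, 11.4 and 8.12 normalized tags in IP libraries 1, 2 and 3, against 0.910, 0.923 and 0.910 tags per 10000000 in the input at those peaks. The enrichment was 19.0-fold, 12.5-fold and 8.91-fold in these libraries, where every listed peak had to reach 4-fold over the input. The mean was 12.3 ± 4.65 normalized tags (SD, n = 3), above that of 82.2% of reproducible regions, and 13.5 ± 5.14-fold over the input.

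IP libraries 1 and 3 differed at the Apoe promoter by more than counting error, and IP library 2 overlapped both. The 95% exact Poisson interval, which covers counting error only, was 13.3 to 22.2 normalized tags in IP library 1, 8.02 to 15.7 in IP library 2 and 5.62 to 11.3 in IP library 3. IP library 3 held 0.469 times the level of IP library 1 there, against a median of 0.841 times over all reproducible regions, and a lower ratio was found in 1.06% of them. Fold over the surrounding 10 kb followed the same order of libraries, with 16.1, 11.6 and 7.82. A peak of IP library 1 alone, from 19701134 to 19701286 with 5.78 normalized tags, lay at the upper-coordinate end of the Apoe span, next to Tomm40, which encodes the channel of the mitochondrial import pore. The RefSeq promoter table lists 3 starts of Apoe, and the promoter region lay at the farthest upstream of these. The Apoe span runs on to 19701310, upstream of that start, so the promoter region is counted inside the span. Among genes with a promoter in that table, 8.39% of protein-coding genes had a promoter touched by a reproducible region. The sources used here give no exons, so regions are placed by distance to the start or the span.

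The strongest region of the Apoe window was 14.9 kb outside Apoe, on chromosome 7 from 19716133 to 19716330. It lay between Tomm40 and Nectin2, which encodes a cell adhesion protein, 0.412 kb from the span of Nectin2 and inside that of the non-coding RNA gene Gm38955. It held 15.4, 15.1 and 9.55 normalized tags in IP libraries 1, 2 and 3. Their mean was 13.4 ± 3.29 (SD, n = 3), above that of 85.9% of reproducible regions. The input was at its floor of 0.5 tags at all 3 peaks, so the authors' folds of 102, 99.3 and 62.9 depend on that floor. A further peak of IP library 1, with 7.98 normalized tags, lay beside it from 19715717 to 19715869, and Tomm40 was the nearest protein-coding gene, at 0.351 kb.

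On the other side, downstream of Apoe, 3 weaker reproducible regions lay from Apoc1 to Clptm1. The nearest to Apoe, 2.48 kb from its end and 1.11 kb from Apoc1, which encodes a small apolipoprotein that inhibits lipoprotein uptake, ran from 19693675 to 19693861. It held 9.36, 5.54 and 4.78 normalized tags in IP libraries 1, 2 and 3, highest in IP library 1, and averaged 6.56 ± 2.45 (SD, n = 3). The next ran from 19669297 to 19669616, 26.8 kb from Apoe and 2.12 kb from Apoc2, which encodes the activator of lipoprotein lipase, and from the gene model Gm44805, whose span overlaps that of Apoc2. It held 7.98, 12.3 and 8.60 normalized tags in IP libraries 1, 2 and 3, and although neighbouring peaks overlapped, no single base was covered by all of them. The last, from 19665076 to 19665256, touched the RefSeq promoter of Clptm1, a membrane protein gene, at 31.1 kb from Apoe. It held 10.5, 6.77 and 11.5 normalized tags in IP libraries 1, 2 and 3, against 1.52, 1.51 and 1.52 tags per 10000000 in the input, which gave 6.89-fold, 4.46-fold and 7.55-fold enrichment. IP libraries ranked differently in these regions, and their intervals overlapped in each of them: at the Clptm1 promoter, 4.24 to 10.3 in IP library 2 and 8.45 to 15.2 in IP library 3.

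**Figure D2:**
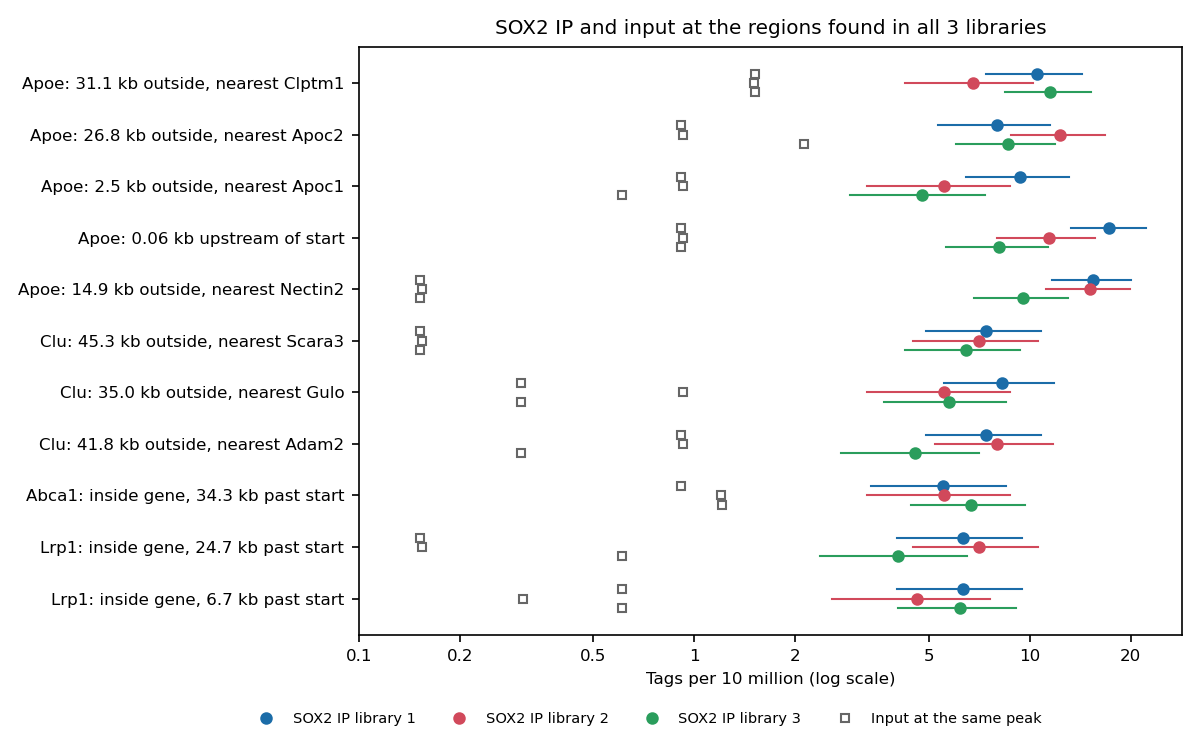
Normalized tags of the 3 SOX2 IP libraries (filled circles, with 95% Poisson intervals) and tags of the input at the same peaks (open squares), both per 10000000 on a log axis, for the 11 regions found in all 3 libraries. Every IP value lies to the right of its input value, as the authors' minimum of 4-fold over the input requires of every listed peak. Some squares show the input's floor of 0.5 tags and not a measured level. They are those of the regions near Nectin2 and inside Scara3, and those of IP libraries 1 and 2 at 1 Lrp1 region. The IP values run between 4.06 and 17.3, highest at the Apoe promoter in IP library 1.

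Clu itself carried peaks in IP libraries 1 and 2 but no reproducible region. The region at the lower-coordinate end of its span, on chromosome 14 from 65968483 to 65968702, held 4.95 and 6.46 normalized tags in IP libraries 1 and 2. Whether that end is the start of Clu was not determined, because no promoter of Clu was listed. The region from 65970766 to 65970944, inside the gene, held 7.43 and 8.00 normalized tags in IP libraries 1 and 2, with 24.5-fold and 26.4-fold enrichment. A further peak, from 65973553 to 65973705, was found in IP library 2 with 5.85 normalized tags. IP library 3 listed none of the 3, which says only that they did not pass its filters. Of all regions found in both other libraries with a mean of 7 to 9 normalized tags there, 86.9% were also found in IP library 3, and of those with a mean of 5 to 6 it was 62.7%. Without IP library 3, with regions needing both others, the window of Clu held 6 regions in place of 3.

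The 3 reproducible regions of the Clu window lay nearer to other genes. The first, from 65923045 to 65923278, was inside Scara3, a scavenger receptor-like gene, and the non-coding RNA gene Gm41182, and 45.3 kb from Clu. It held 7.43, 7.08 and 6.45 normalized tags in IP libraries 1, 2 and 3, with the input at its floor in each. The second, from 66016420 to 66016623, lay 34.97 kb from Clu and 7.27 kb from Gulo, which encodes the last enzyme of vitamin C synthesis in mice, with 8.26, 5.54 and 5.73 normalized tags in IP libraries 1, 2 and 3. The last, from 66023257 to 66023482, lay 41.8 kb from Clu and 3.95 kb from Adam2, a sperm surface protein gene, with 7.43, 8.00 and 4.54 normalized tags. Their means of 6.99 ± 0.497, 6.51 ± 1.52 and 6.66 ± 1.86 (SD, n = 3) lay below the median of all reproducible regions. Scara3 also held a region of IP libraries 1 and 2, with 4.68 and 4.00 normalized tags, and a peak of IP library 2 with 4.31. The 3 regions per window or more that Clu had were found for 8.98% of all protein-coding genes.

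Among the cholesterol transporters, Abca1 carried 1 weak reproducible region. It spanned bases 53125467 to 53125671 of chromosome 4, within the gene and 34.3 kb downstream of its start. It held 5.51, 5.54 and 6.69 normalized tags in IP libraries 1, 2 and 3, against 0.910, 1.20 and 1.21 tags per 10000000 in the input. The mean of 5.91 ± 0.673 (SD, n = 3) lay above that of 24.8% of reproducible regions, and the enrichment of 6.04-fold, 4.56-fold and 5.51-fold was close to the authors' limit of 4. At the Abca1 start, IP library 2 had the promoter peak shown above, from 53159879 to 53160031 with 4.92 normalized tags, and IP library 3 had a peak 0.661 kb downstream, from 53159155 to 53159313 with 4.78, and these peaks did not overlap. Deeper in the gene, single peaks of IP library 1 (5.78 normalized tags) and IP library 2 (4.31) lay 43.8 kb and 44.4 kb from the start without overlapping. A peak of IP library 3, 36.3 kb outside Abca1 with 3.82 normalized tags, was nearer to Lexis1, a non-coding RNA known from mouse liver as an LXR target, at 8.60 kb.

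Abcg1 had 1 peak in 1 library. It lay within the gene, at bases 31070485 to 31070637 of chromosome 17. IP library 2 gave it 6.16 normalized tags, 4.05-fold over an input of 1.51 tags per 10000000. IP libraries 1 and 3 listed none in its window. Abcg1 was thus among the 71.8% of all protein-coding genes with a peak of at least 1 library within 50 kb. It was not among the 46.6% with a reproducible region there. The level at sites that did not pass a library's filters is unknown.

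Lrp1, the receptor gene, carried 2 reproducible regions, both inside the gene and nearest to it. The first, on chromosome 10 from 127596382 to 127596575, lay 24.7 kb downstream of the start and also inside the non-coding RNA gene Gm16217. It held 6.33, 7.08 and 4.06 normalized tags in IP libraries 1, 2 and 3. Its folds were 41.7, 46.6 and 6.69, with the input at the floor of 0.5 tags for IP libraries 1 and 2 and at 2 tags for IP library 3. The second, from 127614310 to 127614541, lay 6.72 kb downstream of the start and held 6.33, 4.62 and 6.21 normalized tags, with 10.4-fold, 15.2-fold and 10.2-fold enrichment. The means were 5.82 ± 1.57 and 5.72 ± 0.955 (SD, n = 3), and the values of the 2 regions overlapped. A peak of IP library 2 alone lay 3.62 kb downstream of the start with 6.46 normalized tags, and a peak of IP library 3 with 4.06 lay 25.2 kb outside, inside Ndufa4l2, which encodes a mitochondrial protein. No peak of any library touched the RefSeq promoter of Lrp1.

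**Figure D3:**
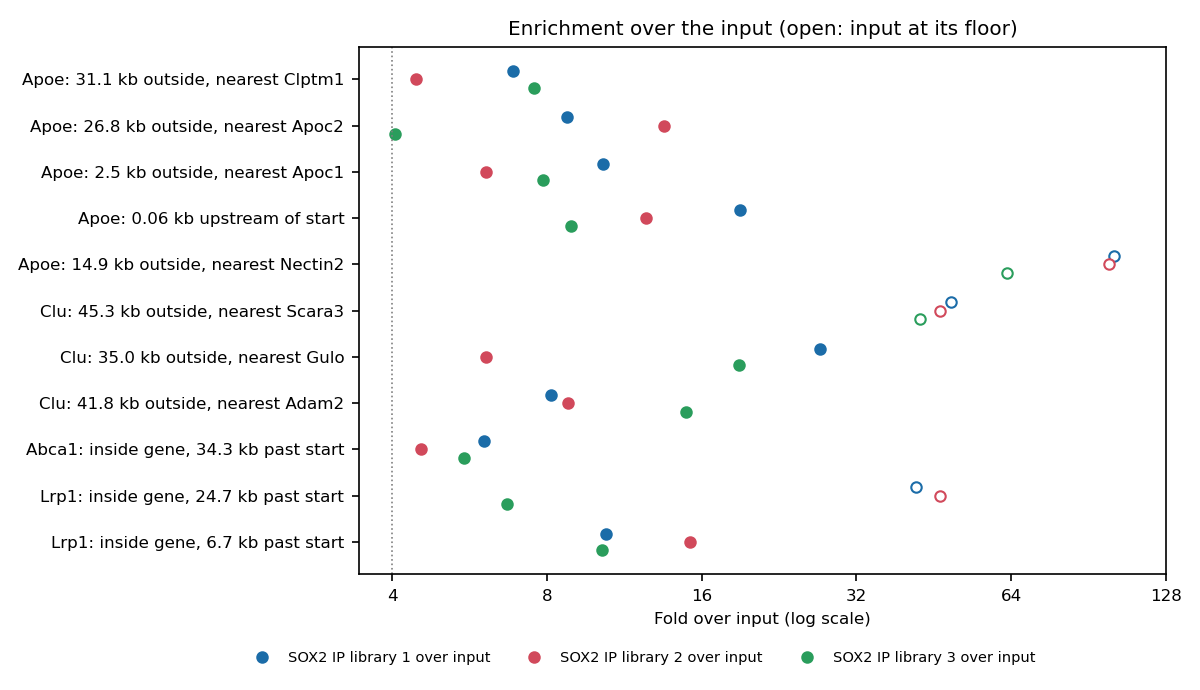
Fold over the input, the authors' value on a log axis, of the 11 regions found in all 3 libraries, 1 point per SOX2 IP library; open points have the input at its floor of 0.5 tags and the dotted line is the authors' minimum of 4. The Apoe promoter lies between 8.91-fold and 19.0-fold with no point at the floor, and the region near Nectin2 lies between 62.9-fold and 102-fold with all points at the floor.

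Among regions nearest to a member, the Apoe promoter had the highest mean, and the values of Abca1 and Lrp1 overlapped. The Apoe promoter mean exceeded that of the strongest Abca1 region by 6.36 normalized tags and that of the strongest Lrp1 region by 6.45, and the 3 Apoe values lay above all 3 values of each (exact two-sided permutation test, p = 0.1, n = 3 each, adjusted p = 0.15 over 3 pairs). With 3 values against 3 that test cannot go below 0.1. Both regions of a pair were measured in the same 3 libraries. With values paired by library, a test chosen after seeing the data, Apoe was higher in 3 of 3 libraries in both comparisons (exact paired permutation test, p = 0.25, n = 3, adjusted p = 0.375 over 3 pairs), where 0.25 is the smallest p possible. The Poisson intervals of Apoe and of either other region overlapped in IP libraries 2 and 3 and did not in IP library 1. The strongest Abca1 and Lrp1 regions differed by 0.09 normalized tags, and their values overlapped (exact permutation test, p = 1, n = 3 each). With 3 libraries neither test could reach a small p, so these tests could not decide an order of the genes. Clu and Abcg1 had no reproducible region of their own.

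Over the 11 reproducible regions, the median was 6.66 normalized tags and 12.0-fold, against 7.63 and 15.3-fold over all reproducible regions, and 4 of the 11, all in the Apoe window, lay above the first of these medians. For the 4 regions nearest to a member the median was 5.87 normalized tags, and for the 7 nearer to another gene 6.99. The focus ratio, the fraction of tags placed as the peak centre predicts, averaged 0.799 at the Apoe promoter, the highest of the 11, against a median of 0.742 over all reproducible regions. IP library 3 gave the lowest value in 6 of the 11 regions. Just inside the limit of 50 kb lay the Scara3 region of the Clu window at 45.3 kb. Beyond it, the next reproducible region for Abca1 lay at 58.9 kb, next to Lexis1, with 5.08 ± 1.75 normalized tags. The next for Clu lay at 78.2 kb with 10.8 ± 0.81, and that for Apoe at 91.7 kb, by Clasrp, with 8.33 ± 1.10 (SD, n = 3).

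**Figure D4:**
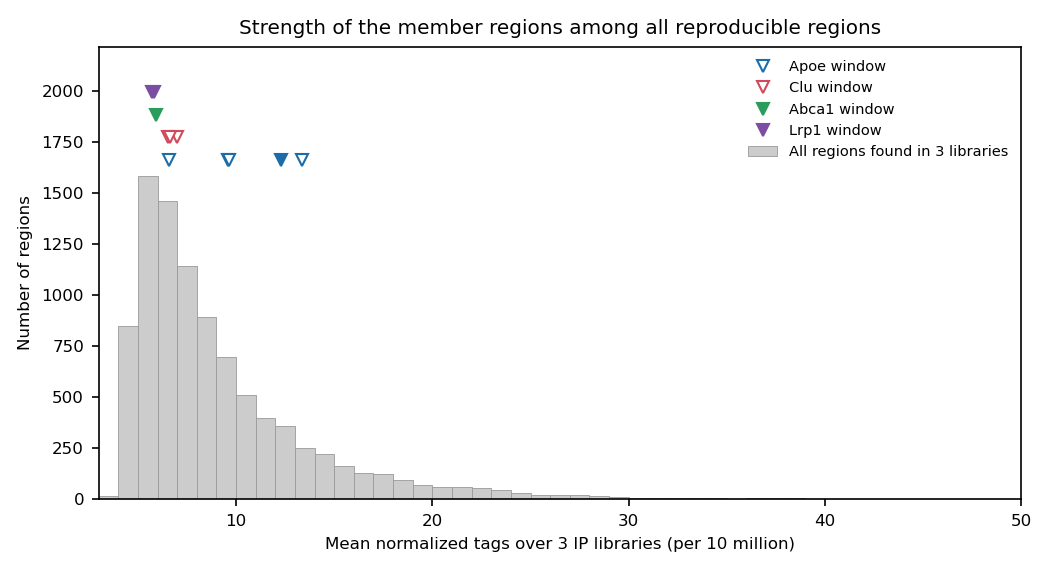
Number of reproducible regions by mean normalized tags over the 3 SOX2 IP libraries (per 10000000), with triangles at the 11 regions of the Apoe, Clu, Abca1 and Lrp1 windows (filled where the named gene is the nearest protein-coding gene, open where another is nearer). The Apoe promoter at 12.3 and the region near Nectin2 at 13.4 lie in the upper part, and the Abca1 and Lrp1 regions lie below the median of 7.63.

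Other genes of lipid transport and its control, in a list of 67, had reproducible regions in 40 windows (59.7%), against 46.6% of all protein-coding genes, and 21 (31.3%) were the nearest gene to one, against 22.9%. The list was not matched to the other genes for length or gene density. In the group listed as LXR and SREBP regulators, 7 of 14 had a region in the window and 5 were nearest to one. Not all of that group are regulators: it also holds the enzyme gene Lpcat3, which is in both counts. Srebf2, the main activator of cholesterol synthesis genes, had the strongest, inside the gene, with 18.4, 18.2 and 15.3 normalized tags in IP libraries 1, 2 and 3. The LXR genes Nr1h2 and Nr1h3, named after their values were seen, had none in their windows. The strongest regions in the windows of Ppard, a fatty acid sensor (13.6 ± 3.45), and Lpcat3, a phospholipid remodelling enzyme (8.01 ± 2.16), lay nearer to Rpl10a and Grcc10 (SD, n = 3).

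Of the apolipoprotein genes, 6 of 10 had a region in the window and 3 were nearest to one, and the strongest window region of Apoc1, Apoc2 and Apoc4 was the one near Nectin2 given above. Of the ABC transporter genes, 4 of 7 had a region in the window and 0 were nearest to one: those of Abca2, Abca7 and Abcg4, with 20.4 ± 1.71, 12.8 ± 3.36 and 9.88 ± 3.08 normalized tags (SD, n = 3), lay nearer to Entpd2, Gpx4 and H2ax. Lipoprotein receptors and their adaptors had regions in 10 of 16 windows, and 7 were nearest to one. Dab1, the adaptor of the reelin receptors, held 17.1, 17.2 and 17.2 normalized tags at the strongest of its 10 regions. Lrp1b, a close relative of Lrp1, held 17.1, 14.8 and 12.7 at the strongest of its 5, and Sort1, a sorting receptor, held 11.6, 9.85 and 11.5. All 3 exceeded the regions of Lrp1 itself in every library. Dab1 and Lrp1b had more regions than Lrp1 from which the strongest was taken, and gene length was not matched.

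Of the lipoprotein remodelling genes, 3 of 4 had a region in the window and 0 were nearest to one: Lipg, Pltp and Lcat, with 9.69 ± 1.30, 8.77 ± 2.34 and 8.68 ± 2.05 normalized tags (SD, n = 3), where Rpl17, Ctsa and Slc12a4 were nearer. Of the genes of intracellular sterol handling, 10 of 16 had a region in the window and 6 were nearest to one. Among regions nearest to these 6, the strongest were inside Soat1 and Gramd1b, named after their values were seen. The strongest in each held 10.2 ± 1.77 and 10.0 ± 2.81 normalized tags (SD, n = 3). The strongest window regions were those of Scap, the SREBP escort protein gene (15.3 ± 0.624), Osbpl1a, an oxysterol-binding protein relative (14.4 ± 2.97), and Cyp46a1, which makes the oxysterol by which neurons shed cholesterol (12.7 ± 3.06), and each lay nearer to another gene, namely Elp6, Cabyr and Hhipl1 (SD, n = 3).

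**Figure D5:**
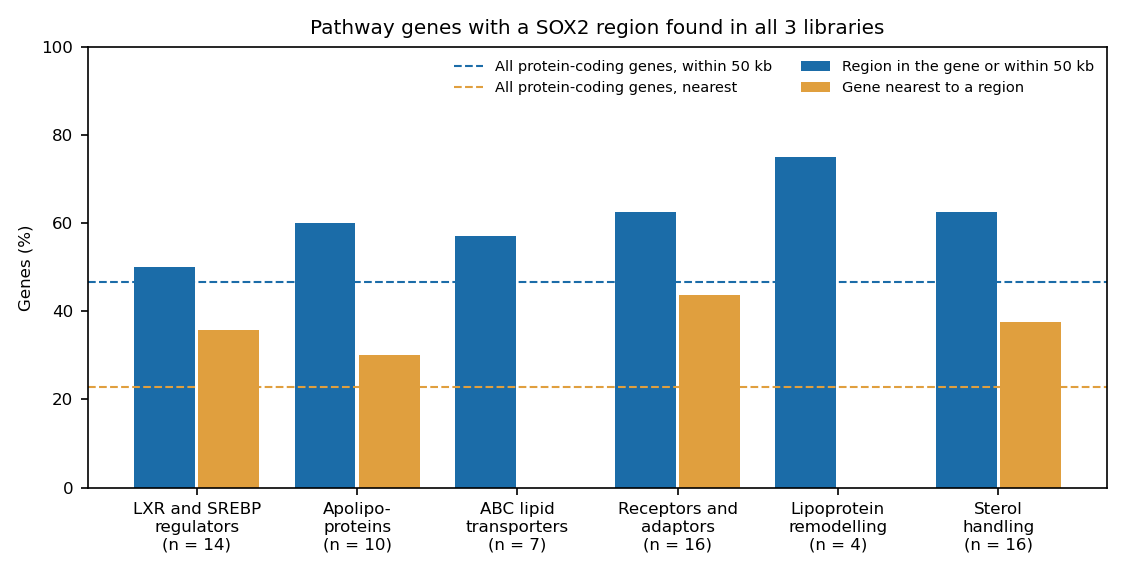
Share of the pathway genes of each role, in percent, with a SOX2 region found in all 3 libraries inside or within 50 kb (blue) and of those that are the nearest protein-coding gene to one (orange), with dashed lines at the shares of all protein-coding genes, 46.6% and 22.9%. Receptors and adaptors have the highest share of nearest genes, 7 of 16, while ABC transporters and remodelling enzymes have 0.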

How the data were processed

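SOX2 ChIP-seq of mouse cortex was deposited as 1 peak list per IP library, and the input entered through columns of those lists. Per the submitters' processing notes, Bowtie 1.0.0, HOMER 4.7 and the mm10 build were used. Each IP library was called separately against the input: per the file headers, a peak needed 4-fold enrichment over both the input and the surrounding 10 kb, each with a Poisson p-value threshold of 0.0001, at an FDR of 0.001. Per the file headers, normalized tags are a signal scaled to 10000000 tags, and total tags are deposited as whole counts in IP library 2 and as a scaled signal in IP libraries 1 and 3. The deposited fold is a ratio over the input, which the authors set to no less than 0.5 tags. The focus ratio is the authors' fraction, and the peak score is deposited by the authors as capped tags.

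Tags per peak were computed from normalized tags and the library total and given exact Poisson 95% intervals, which cover counting error only. Gene spans and promoters came from RefSeq tables of GRCm38.p6, in which 3 of the 5 genes have a promoter. Regions in which the 3 libraries' peaks overlapped by at least 1 bp were called reproducible. The genes and lists were chosen with earlier results of these data known. All 5 genes, every nearer protein-coding gene and the 3 strongest pathway genes of each role were named. Merging and window counts were tested on simulated data. Computations used Python 3.11.15 with scipy 1.17.1, pandas 2.3.3 and numpy 2.4.6, and plots matplotlib 3.10.9. Alternatives were other overlaps, window sizes, fold and strength limits, and leaving out each IP library.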

Additional observations from a re-analysis of the deposited data

How the results depend on the processing

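The count of 4 genes with a reproducible region in the window stayed within 1.5 times under 11 of 12 alternatives and was 2 when peaks were limited to the stronger 0.5 in each library. The 11 regions became 5 with only peaks of at least 8-fold over the input, 5 with the stronger 0.5 of peaks, 5 with windows of 5 kb, 19 with windows of 100 kb and 4 when only the nearest protein-coding gene counted. With peaks of at least 8-fold, Apoe had 2, Clu 2, Abca1 0 and Lrp1 1. With windows of 100 kb Abca1 had 5. The median strength of 6.66 normalized tags was 9.63 with the stronger 0.5 of peaks and 5.87 with the nearest gene only, and as fold over the input it was 12.0, which is another unit. The 40 pathway genes became 19 with windows of 5 kb and 21 with the nearest gene only. With regions of at least 2 libraries, Clu had 6. Where peaks of each pair of libraries had to share 0.5 of their length, the 11 regions became 9, with 4 for Apoe and 2 for Clu. Leaving out each IP library gave 4 genes each time, 10 to 14 regions, a median of 6.27 to 7.35 normalized tags and 46 to 47 pathway genes. Abcg1 had 0 regions under all 12 alternatives. Peaks at the caller's threshold rest on 13 to 16 tags. With the IP library as a replicate block, added after seeing the data, the Apoe promoter exceeded the strongest Abca1 and Lrp1 regions by the same 6.36 and 6.45 normalized tags, with an exact paired p of 0.25 in place of 0.1 (n = 3). IP and input could not be paired, since there was 1 input.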
